A study of Mus musculus with 100 samples.

Results

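The PU.1 peaks described here were those with no listed peak of the coactivator p300 or of the corepressor proteins NCoR and HDAC3 beside them. A peak of the PU.1 list was kept where no peak centre of the p300, NCoR or HDAC3 list lay within 1000 bp of its own centre. This left 8222 of 50690 PU.1 peaks (16.2%), which are called coregulator-negative below. The other 42468 peaks had a listed peak of at least 1 of the 3 proteins nearby and are called coregulator-positive. The names describe peak lists: the tags of p300, NCoR and HDAC3 at the coregulator-negative peaks were not analysed here, and binding too weak to be listed cannot be told apart from none.

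The cells were bone marrow-derived macrophages (BMDMs), cells grown from mouse marrow. They were studied by ChIP-seq, which counts sequenced DNA tags recovered with an antibody. The main PU.1, p300, NCoR, HDAC3, p65, Fosl2, PGC1β and ERK1 libraries came from wild type (WT) cells of C57BL/6 mice aged 8 to 12 weeks, treated with vehicle (Veh) or, for 6 h, with KLA, a lipid A that activates the receptor TLR4. The p300 Veh libraries are labelled 0 h of KLA. Further lists came from WT BMDMs given an ERK inhibitor (ERKi) and KLA (NCoR) and from WT osteoclast precursors grown from bone marrow, at Day0 and at Day4 of culture with the cytokine RANKL (p300). The acetylation mark H3K27ac was measured in NKO cells (genotype NCoR flox/flox, LysMCre) and their controls with Veh or KLA. These controls are named WT but carry the floxed NCoR allele without Cre (genotype NCoR flox/flox). A separate H3K27ac experiment used wild type cells with DMSO and Veh, DMSO and KLA, or the HDAC3 inhibitor RGFP966 and KLA. LysM-Cre acts in the myeloid lineage, and the loss of NCoR in the NKO cells was not checked here. Each group held 2 libraries, labelled as biological replicates, whose source animals are not given, so the p-values measure the spread between these samples.

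PU.1 is an ETS-family transcription factor that myeloid cells and B cells need. It binds a purine-rich sequence around GGAA and, together with partners such as C/EBP and AP-1 proteins, opens the enhancers of macrophages. p300 acetylates histones at active enhancers and promoters. NCoR holds HDAC3, a histone deacetylase, in a complex best known for repression. TLR4 signalling sends the NFκB subunit p65 and AP-1 proteins such as Fosl2 to DNA.

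The libraries used held between 4.30 and 21.5 M tags (M stands for the prefix mega), and the 4 PU.1 libraries between 15.3 and 19.3 M. Levels are given as tags per 10 M tags of the library. With Veh, H3K27ac regions lay within 2 kb of the start of 5 macrophage markers (Cd68, Itgam, Mertk, Fcgr1 and Cd14), with 17.1 to 64.4 tags per 10 M. No listed region lay there for the 5 B cell and 5 T cell markers, and 1 of 5 neutrophil markers had one (Camp, 3.55 tags per 10 M). No region was listed there for the macrophage genes Csf1r, Adgre1, Lyz2 and Mpeg1 either. Fosl2 KLA replicate 1 stood apart as the smallest library (4.30 M tags), with 16.4% of its tags in Fosl2 peaks against 32.3% in replicate 2.

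Sequences are shown for coregulator-negative peaks at both ends of the results: the strong ones near Nubp2 and Ptma, the pair with the lowest p among peaks that rose with KLA (Tmigd1 and Gbp6), and the pair with the lowest p among those that fell (Cpt1a and Snhg7). Each is the plus strand of GRCm38 (mm10) from RefSeq's genome, 200 bases around the peak centre, with the Nubp2 window held to the 108 bases that no annotated exon covers. Capitals mark the PU.1 core GGAAGT or its reverse complement ACTTCC. The window of the strong Aplf peak lies mostly in annotated exons and is not printed.
Nubp2 promoter, chr17:24886411-24886518: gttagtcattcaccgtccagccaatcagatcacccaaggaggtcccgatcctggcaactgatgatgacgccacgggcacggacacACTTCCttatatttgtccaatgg
Ptma upstream, chr1:86509459-86509658: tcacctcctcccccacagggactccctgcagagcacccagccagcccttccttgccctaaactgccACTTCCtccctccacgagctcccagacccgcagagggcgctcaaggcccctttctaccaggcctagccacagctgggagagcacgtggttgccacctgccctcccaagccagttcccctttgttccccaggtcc
Tmigd1 intron, chr11:76910952-76911151: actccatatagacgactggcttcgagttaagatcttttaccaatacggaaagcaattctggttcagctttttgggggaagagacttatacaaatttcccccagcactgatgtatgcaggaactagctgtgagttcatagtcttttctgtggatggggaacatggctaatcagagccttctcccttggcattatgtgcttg
Gbp6 intron, chr5:105292387-105292586: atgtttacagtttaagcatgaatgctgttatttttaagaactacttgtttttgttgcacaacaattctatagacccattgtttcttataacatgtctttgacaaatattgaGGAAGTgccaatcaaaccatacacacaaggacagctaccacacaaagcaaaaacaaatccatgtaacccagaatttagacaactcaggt
Cpt1a upstream, chr19:3321740-3321939: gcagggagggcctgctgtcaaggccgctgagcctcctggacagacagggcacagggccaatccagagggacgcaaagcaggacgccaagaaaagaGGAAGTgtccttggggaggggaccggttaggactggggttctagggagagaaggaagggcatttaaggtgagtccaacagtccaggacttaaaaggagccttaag
Snhg7 upstream LTR, chr2:26655611-26655810: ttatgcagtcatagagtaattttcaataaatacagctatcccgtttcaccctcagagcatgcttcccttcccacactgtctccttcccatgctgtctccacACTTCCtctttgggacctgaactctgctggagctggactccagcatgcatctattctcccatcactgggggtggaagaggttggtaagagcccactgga

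The core stood within a few bases of the centre of the Cpt1a and Snhg7 peaks and 14 bases past that of the Gbp6 peak. In the Nubp2 promoter it lay 80 bases past the centre. The Tmigd1 window held no GGAAGT and 5 copies of GGAA on either strand, which says only that the longer letters are not in this window.

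Coregulator-negative peaks were weak PU.1 peaks. Their median was 41.0 PU.1 tags per 10 M (mean of the 4 libraries, quartiles 30.9 and 58.4, range 14.3 to 387), against 76.8 at coregulator-positive peaks. Per library, their median was 48.6 and 49.2 with Veh and 32.1 and 32.5 with KLA. Coregulator-positive peaks had medians of 82.2 and 82.8 with Veh and of 70.7 in both KLA libraries. The 2 sets did not overlap in any library median, and within each set the Veh medians lay above the KLA medians.

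PU.1 signal stepped up with the number of the 3 lists nearby. The median was 48.5 tags per 10 M for 6185 peaks with 1 of the 3 proteins, 57.7 for 6104 peaks with 2 and 92.2 for 30179 peaks with all 3. When all PU.1 peaks were cut into 4 equal groups by signal, coregulator-negative peaks made up 35.8% of the weakest group, 17.7% of the second, 8.84% of the third and 2.54% of the strongest. Still, 322 of them were in the strongest group. How far absence from the 3 lists follows from weak signal was not tested.

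**Figure D1:**
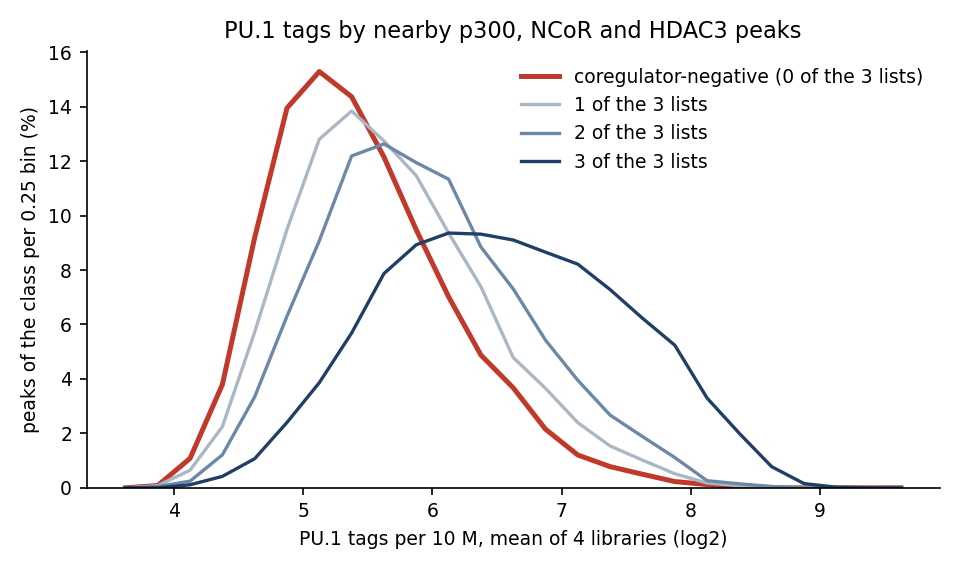
Distribution of PU.1 tags per 10 M (log2, mean of 4 libraries, x axis) for peaks with 0, 1, 2 or 3 of the p300, NCoR and HDAC3 lists within 1000 bp. The y axis is the percent of each class per bin. The class with none of the 3 lies farthest left (median 41.0 tags) and the class with all 3 farthest right (median 92.2).

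The distance cut-off set no sharp edge. The 421 coregulator-negative peaks up to 200 bp beyond it had a median of 42.3 tags per 10 M, and the 499 coregulator-positive peaks up to 200 bp short of it had 42.9. The median distance from a coregulator-negative peak to the nearest p300, NCoR or HDAC3 centre was 5720 bp (quartiles 2484 and 13614 bp), and 2740 of them (33.3%) were over 10 kb away. By list, 12796 PU.1 peaks had no p300 centre within 1000 bp, 14119 no NCoR centre and 16225 no HDAC3 centre.

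The strongest coregulator-negative peak lay at the promoter of Nubp2, which encodes an iron-sulfur cluster assembly factor (chr17:24886318-24886521, -69 bp from the start). It had 394 and 405 tags per 10 M with Veh and 355 and 393 with KLA. The KLA values lay below the Veh values by less than the 2-fold of a call (log2 fold change -0.10 ± 0.08 SE, edgeR adjusted p = 0.284). Next came an intergenic peak at -16998 bp from the start of Ptma, which encodes the nuclear protein prothymosin alpha, with 427 and 450 tags with Veh and 263 and 289 with KLA. The groups did not overlap, and the difference passed the test without reaching 2-fold (-0.67 ± 0.08, adjusted p = 1.71e-12). Fosl2 and PGC1β centres lay 17 and 16 bp from it. The promoter of Aplf, a DNA repair factor, had 325 and 362 tags with Veh and 340 and 326 with KLA, and the groups overlapped.

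The other strong peaks lay 7550 bp past the start of the RIKEN gene 1110006O24Rik and at the promoter of Gpr108, a Golgi membrane protein. The first had 348 and 375 tags with Veh and 281 and 302 with KLA, with no overlap (log2 fold change -0.31 ± 0.08, adjusted p = 0.000621), and its sign turns with TMM (0.11). At Gpr108 the 4 values ran from 304 to 317 and the groups overlapped. Nubp2, Aplf and Gpr108 were also the 3 strongest promoter peaks. Next among promoters were Ticrr, which acts in the initiation of DNA replication (275 and 299 tags with Veh, 292 and 327 with KLA), and 4930402F06Rik (296 and 329 with Veh, 273 and 280 with KLA). Ticrr overlapped between groups, 4930402F06Rik did not, and neither passed the test (adjusted p = 0.226 and 0.0601 by edgeR). The 5 promoter peaks had log2 fold changes between -0.17 and 0.11 by library totals and between 0.24 and 0.53 with TMM, a scaling described below, so the sign of 3 of them depends on the scaling.

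The weakest coregulator-negative peaks were assigned to Pcp4 (260472 bp past its start), Hoxa10 and Shisa9, genes best known from neurons (Pcp4 and Shisa9) and from body patterning and blood progenitors (Hoxa10). The Pcp4 peak had 23.8 and 24.9 tags per 10 M with Veh and 4.58 and 3.82 with KLA. The Hoxa10 peak, in its 5′ untranslated exon, had 27.4 and 24.3 tags with Veh and 3.93 and 1.91 with KLA. At Shisa9 the 2 KLA libraries held 3 and 0 tags in all, against 54 and 47 with Veh. All 3 were listed from Veh cells alone and picked for a low mean of the 4 libraries, which asks for low KLA values, so no fold or test is given.

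PU.1 signal at coregulator-negative peaks was lower with KLA. Of 8222 peaks, all of which passed the low-count filter of 4 tags, 2836 (34.5%) were called lower with KLA and 62 (0.754%) higher, at an edgeR adjusted p under 0.05 and over 2-fold. Over all 50690 PU.1 peaks, 21.7% were called lower and 4.53% higher. At coregulator-positive peaks, 8184 (19.3%) were called lower and 2234 (5.26%) higher. The median log2 fold change was -0.68 at coregulator-negative peaks, -0.62 and -0.46 with 1 and 2 of the 3 proteins, -0.30 with all 3, and -0.41 over all peaks.

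The general shift depends on scaling. With TMM, a scaling that assumes most peaks do not change, the median over all peaks moved from -0.41 to 0.00. Relative to that, coregulator-negative peaks had a median of -0.26 and coregulator-positive peaks of 0.05. With TMM, 1456 of 8222 coregulator-negative peaks were called lower and 228 higher. At the 42468 coregulator-positive peaks, 3909 were called lower and 4401 higher, and over all 50690 peaks 5365 and 4629. The order of the 2 sets did not depend on the scaling.

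The share of all listed-peak tags that fell in coregulator-negative peaks was 9.51% and 9.47% in the Veh libraries and 7.91% and 7.98% in the KLA libraries, while they are 16.2% of the peaks. The groups did not overlap, with a difference of -1.55 percentage points (9.49 ± 0.03 against 7.94 ± 0.05, mean ± SD, n = 2). A two-sided exact permutation test gave p = 0.333, the smallest that 2 libraries against 2 allow.

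Most coregulator-negative peaks had been listed from Veh cells alone: 7565 (92.0%, exact 95% interval 91.4 to 92.6), against 57.5% of coregulator-positive peaks. Another 636 (7.74%) were listed in both conditions and 21 (0.255%) with KLA alone, against 39.8% and 2.70%. A peak listed from Veh cells alone was selected on its Veh signal, so its change was compared within each kind of listing. Among peaks listed with Veh alone, the median log2 fold change was -0.74 at coregulator-negative and -0.60 at coregulator-positive peaks, with 37.4% and 29.9% called lower. Among peaks listed in both, it was -0.11 and -0.16, and 9 of 636 coregulator-negative peaks were called lower and 28 higher. Restricted to these 636, a comparison chosen after the values were seen, calls in the lower direction no longer outnumbered those in the higher one. The same held at the 16915 coregulator-positive peaks listed in both, where 877 were called lower and 1096 higher. Of the 21 coregulator-negative peaks listed with KLA alone, 16 were called higher, against 927 of 1148 coregulator-positive peaks. Most peaks listed with KLA alone were thus called higher in both sets.

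**Figure D2:**
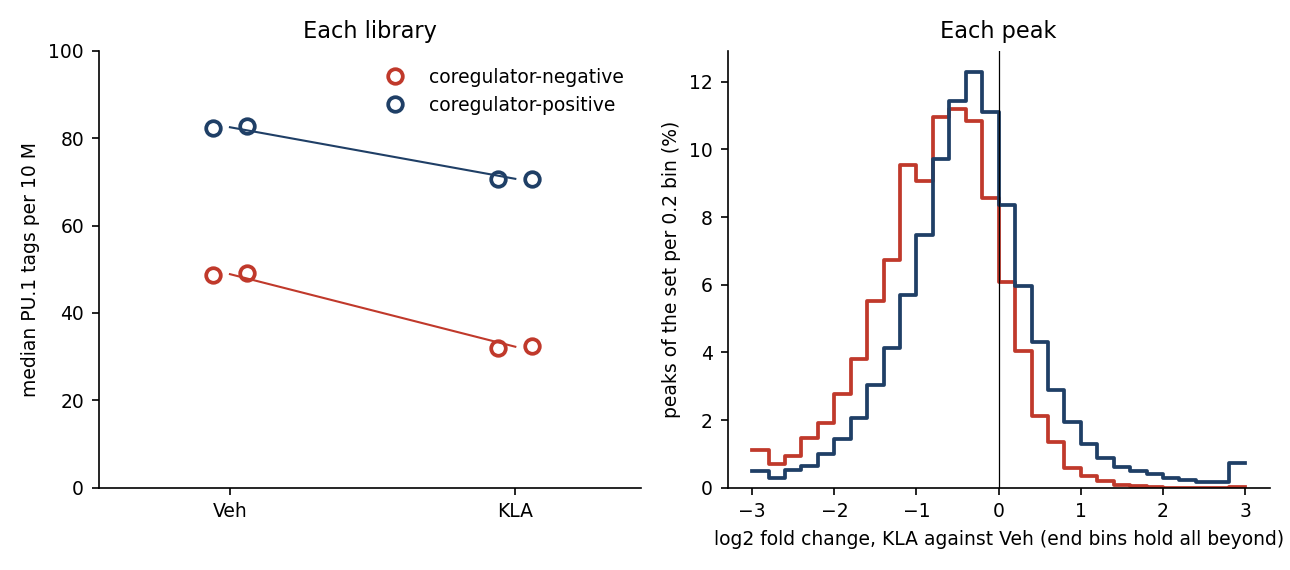
Left, median PU.1 tags per 10 M (y axis) in each of the 2 Veh and 2 KLA libraries (circles, with lines joining group means) for coregulator-negative and coregulator-positive peaks, where the first set has 48.6 and 49.2 with Veh against 32.1 and 32.5 with KLA. Right, percent of the peaks of each set per bin of log2 fold change, KLA against Veh, where the coregulator-negative curve lies to the left (median -0.68), and the outermost bins hold everything beyond them.

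Groups of signal differ in how their peaks were listed. Of coregulator-negative peaks, 100% of the weakest group, 98.0% and 72.1% of the next groups and 7.14% of the strongest were listed with Veh alone, so the change across groups follows the listing, and values are given within each group. In the weakest group, 1992 of 4542 coregulator-negative peaks (43.9%) were called lower, with a median log2 fold change of -0.87, against 35.3% and -0.71 at coregulator-positive peaks, of which 99.5% were listed with Veh alone. In the other groups, from weaker to stronger, the medians were -0.51, -0.44 and -0.36 at coregulator-negative peaks and -0.27, -0.25 and -0.34 at coregulator-positive peaks. Of the coregulator-positive peaks in these groups, 90.7, 53.8 and 5.18% were listed with Veh alone. The 2 sets thus still differed in listing within a group, and these medians are not matched for it. In the strongest group 22 of 322 (6.83%) were called lower and 0 higher, against 11.4% and 2.12% at coregulator-positive peaks.

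The 5 coregulator-negative peaks with the lowest p among those that rose with KLA were assigned to Tmigd1, Gbp6, Arpc5, Oas2 and Cr2. All but Arpc5, which was listed in both conditions, were listed with KLA alone and so selected on their KLA signal. The Tmigd1 intron (chr11:76910946-76911158), in a gene for an immunoglobulin-domain membrane protein, had 9.31 and 6.85 tags per 10 M with Veh and 113 and 120 with KLA. It rose 14.1-fold (log2 fold change 3.82 ± 0.23, adjusted p = 1.29e-32). The Gbp6 intron (chr5:105292384-105292590), in a gene for an interferon-induced GTPase, had 8.27 and 9.34 tags with Veh and 109.9 and 108 with KLA, a 12.4-fold rise (3.63 ± 0.23, adjusted p = 1.23e-30). Both were among the lowest peaks with Veh and lay above the median peak with KLA.

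Oas2, an antiviral oligoadenylate synthetase, carried an intronic LTR peak with 21.7 and 35.5 tags with Veh and 107 and 106 with KLA (1.92 ± 0.19, adjusted p = 5.82e-18). The peak at -8205 bp from Cr2, a complement receptor of B cells, had 33.1 and 25.5 tags with Veh and 116 and 98.1 with KLA (1.85 ± 0.18, adjusted p = 1.05e-17). The intron of Arpc5, an actin-branching complex subunit, had 55.9 and 48.5 tags with Veh and 149 and 145 with KLA (1.48 ± 0.14, adjusted p = 3.39e-18). None of the 5 overlapped between groups. A p65 centre lay 0 bp from the Tmigd1 centre and 28 bp from the Cr2 centre. At Gbp6, Arpc5 and Oas2 the nearest p65 centres were 1617, 1680 and 2837 bp away. Gbp6 and Oas2 belong to families of similar genes, in which tags can be misplaced between copies.

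The 5 clearest falls began from strong signal. The peak at -1461 bp from Cpt1a, which carries fatty acids into mitochondria (chr19:3321740-3321941), had 276 and 308 tags per 10 M with Veh and 70.7 and 72.0 with KLA (log2 fold change -2.03 ± 0.11, adjusted p = 4.12e-37). An LTR peak upstream of the small nucleolar RNA host gene Snhg7 (chr2:26655611-26655812) had 195 and 207 tags with Veh and 28.1 and 33.1 with KLA (-2.71 ± 0.15, adjusted p = 4.87e-37). The treatments were far apart at both, and tags were still counted with KLA.

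The introns of Mxra7, Cdkal1 and Zfp652os followed. Mxra7, a matrix remodelling-associated gene, had 184 and 169 tags with Veh and 18.3 and 27.4 with KLA. Cdkal1, a tRNA-modifying enzyme gene in which the peak overlaps a LINE element, had 188 and 219 tags with Veh and 33.4 and 40.1 with KLA. Zfp652os, a long noncoding RNA gene with the peak in an LTR, had 179 and 172 with Veh and 22.2 and 31.9 with KLA. All 3 fell without overlap, with log2 fold changes of -2.94, -2.46 and -2.70. All 5 were listed with Veh alone, and 3 of the 5 overlap repeats.

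Other measured factors lay beside fewer coregulator-negative than coregulator-positive peaks. A p65 centre lay within 500 bp of 847 of them (10.3%, exact 95% interval 9.65 to 10.98), against 69.6% of coregulator-positive peaks. For PGC1β, a coactivator related to the mitochondrial coactivator PGC1α, the shares were 15.3% and 57.3%. For Fosl2 they were 5.16% and 55.3%, and for the kinase ERK1 6.03% and 48.5%. Open regions of the H3K27ac table lay beside 10.98% and 35.9%. None of these 5 lay within 500 bp of 5393 coregulator-negative peaks (65.6%), against 13.7% of coregulator-positive peaks. The intervals cover counting error only, and peaks are not replicates of a condition.

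These shares were below those of coregulator-positive peaks in each group of PU.1 signal. From the weakest to the strongest group, a p65 centre lay beside 7.24, 13.0, 15.3 and 17.1% of coregulator-negative peaks and 43.7, 63.1, 74.3 and 87.8% of coregulator-positive peaks. In the strongest group, Fosl2 lay beside 10.2% and 77.0%, PGC1β beside 22.05% and 78.6%, ERK1 beside 17.4% and 73.1%, and an open region beside 28.9% and 50.8%. The strong Nubp2, Aplf and Gpr108 promoters each had an open region within 200 bp, while the nearest Fosl2 centres were 8719, 70874 and 9235 bp away. The Gpr108 peak had an ERK1 centre at 92 bp and a PGC1β centre at 481 bp, and the nearest PGC1β centres to Nubp2 and Aplf were 4503 and 1844 bp away.

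Lists from other conditions gave low shares too. Centres of p300 in the osteoclast culture (Day0, and Day4 with RANKL) lay within 500 bp of 2.96% of coregulator-negative peaks and 31.7% of coregulator-positive peaks. For NCoR peaks listed in BMDMs given ERKi and KLA, the shares were 1.76% and 43.0%. NCoR peaks also listed from the Veh or KLA libraries, and osteoclast p300 peaks also listed from BMDMs, were not set apart. The selection removes PU.1 peaks beside such peaks, so it partly sets both low shares, which are no independent evidence.

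**Figure D3:**
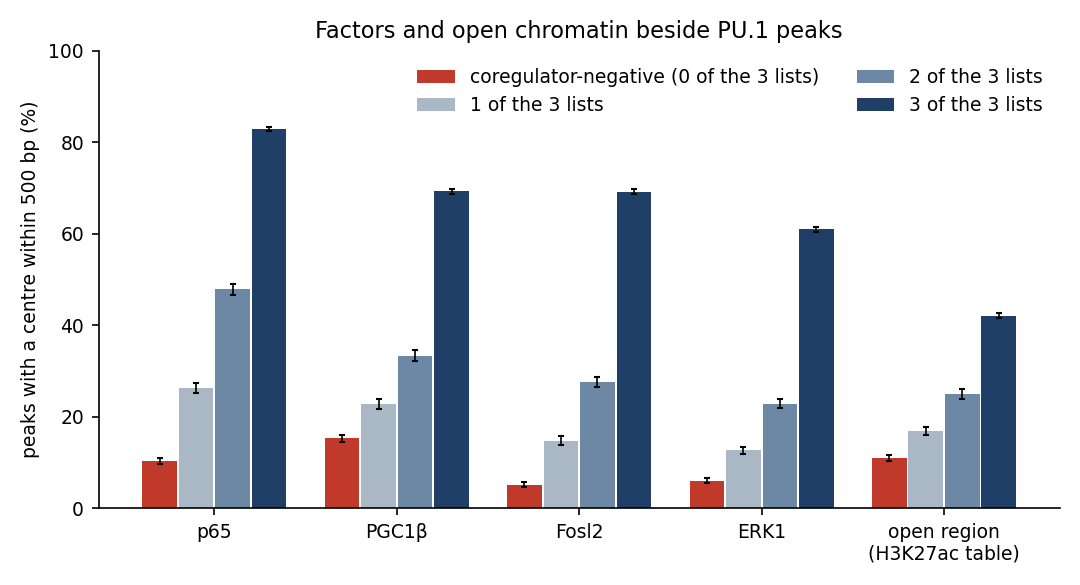
Percent of PU.1 peaks (y axis) with a p65, PGC1β, Fosl2 or ERK1 centre or an open region within 500 bp, for peaks with 0, 1, 2 or 3 of the p300, NCoR and HDAC3 lists nearby (bars, with exact 95% intervals for counting error). Every share climbs with the number of lists, for p65 from 10.3 to 82.9%.

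By annotation the 2 sets were alike in outline. Introns held 49.8% of coregulator-negative peaks (46.7% of coregulator-positive), intergenic DNA 33.4% (36.5%), promoters 10.1% (12.3%) and exons 2.25% (1.118%). The share over 2 kb from the listed start was 80.6% and 79.1%, and the median GC content was 48% in both. The median distance to the start was 12739 bp and 14134 bp. The shares differed by signal. In the strongest group 64.9% of coregulator-negative peaks were over 2 kb from a start, against 81.4% of coregulator-positive peaks, while in the weakest group the shares were 84.6% and 77.4%. The strongest coregulator-negative peaks lay more often near starts, as at Nubp2, Aplf and Gpr108.

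Coregulator-negative peaks stood farther from other PU.1 peaks. Their median distance to the next PU.1 peak was 6534 bp against 2725 bp, and 6.25% had one within 1 kb against 27.1%. The selection itself works this way, since a p300, NCoR or HDAC3 centre at a close PU.1 neighbour removes a peak. Repeats overlapped 22.7% of coregulator-negative peaks (interval 21.8 to 23.6) and 18.6% of coregulator-positive peaks (18.3 to 19.02). LTR elements overlapped 10.8% against 8.39%. Among the most frequent repeat families, named after their values were seen, B3A SINEs (41 of 110 peaks) and ORR1B1 LTRs (36 of 101) had the highest coregulator-negative shares. Tags in repeats can be placed on the wrong copy, which was not tested. By chromosome the share ran from 13.6% on chromosome 12 to 19.1% on chromosome 11.

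The windows of coregulator-negative peaks held PU.1 letters more often and partner letters less often than coregulator-positive ones. In the 200 bases around the centre, read on both strands, the PU.1 core GGAAGT occurred in 60.1% (interval 59.0 to 61.2) against 55.1%, and in 15.9% of open regions without a PU.1 peak. The longer form GAGGAAGT, which contains the core, occurred in 23.3%, 17.1% and 1.28%. The AP-1 motif TGANTCA was in 6.45% against 15.3%, and in 12.0% of open regions without PU.1. The C/EBP motif TTGCNNAA was in 8.79% against 12.9% (7.19% of open regions), and the RUNX motif TGTGGTT in 4.37% against 7.99% (3.56%).

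Motifs of signal-dependent factors followed the same order. The NFκB motif (GGG and TTTCC with any 2 bases between) was in 0.523% against 1.64% (1.38% of open regions), and the IRF pair (GAAA and GAAA with any 2 bases between) in 2.37% against 4.82% (1.90%). The composite PU.1-IRF motif (GGAA and GAAA with any 2 bases between) was close in both at 7.61% and 8.28%. The CTCF-like motif (CC, any 3 bases, AG, any 2 bases, GGC) went the other way, with 7.33% (6.78 to 7.92) against 3.93% (3.75 to 4.12), and 10.7% of open regions. The E-box CACGTG was in 3.27% and 3.88% (6.50%), and the SP/KLF motif GGGCGG in 9.61% and 10.7% (48.3%). The order for PU.1 and AP-1 letters held in each group of signal. The core was in 59.1, 59.6, 63.1 and 67.4% from weakest to strongest, against 48.6, 49.7, 54.8 and 64.3%, and AP-1 in 7.35, 5.50, 5.27 and 4.35%, against 13.1 to 15.8%. Of 1594 coregulator-negative peaks within 2 kb of a start, 51.1% held the core, against 50.4% of coregulator-positive ones. For the SP/KLF motif these were 33.2% and 34.3%. The core shares were thus close near starts, while the longer form was in 15.5% against 13.1%. Of the 6627 distal coregulator-negative peaks 62.3% held the core and 3.94% the SP/KLF motif, against 56.4% and 4.43%. A match of letters is not a measured site.

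Holding the core made little difference to signal within coregulator-negative peaks. The 4942 with it had a median of 41.3 tags per 10 M and a median log2 fold change of -0.71, and the 3279 without it 40.6 and -0.64. Among coregulator-positive peaks the medians were 84.5 tags with the core and 69.2 without. Of the peaks shown above, the Tmigd1 window lacks the core and the Gbp6 and Cpt1a windows have it.

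**Figure D4:**
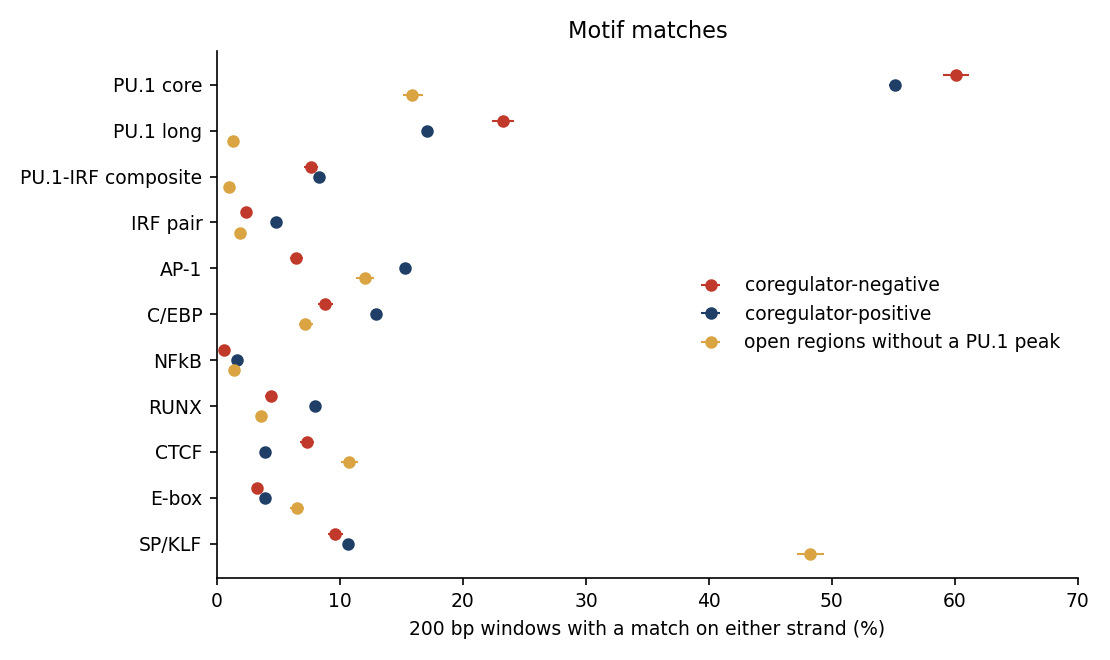
Percent of 200 bp windows (x axis) with a match to each motif on either strand, for coregulator-negative peaks, coregulator-positive peaks and open regions without a PU.1 peak (points, with exact 95% intervals for counting error). The PU.1 core is at 60.1, 55.1 and 15.9%, and AP-1 at 6.45, 15.3 and 12.0%.

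Beside coregulator-negative peaks, median signal of p65, Fosl2, PGC1β and ERK1 lay below that beside coregulator-positive peaks in every library. Against features without a PU.1 peak nearby, the mean of the 2 medians was higher with Veh and lower with KLA for each factor. For p65 it was 16.7 against 7.23 with Veh and 17.6 against 32.8 with KLA. For Fosl2 it was 26.7 against 25.1 with Veh and 7.59 against 50.8 with KLA. The following counts take features with a coregulator-negative peak within 500 bp and no coregulator-positive one there. The lists are merged over conditions, and these counts were not split by the condition of listing as for PU.1. How far a fall follows from listing with Veh was not tested. For p65, 835 such peaks had medians of 15.8 and 17.7 tags per 10 M with Veh and 16.7 and 18.5 with KLA, and the groups overlapped. At 29209 p65 peaks beside coregulator-positive PU.1 peaks the medians were 27.1 and 31.7 with Veh and 54.1 and 59.5 with KLA. Of the 835, 168 (20.1%) were called higher with KLA and 153 (18.3%) lower, against 57.0% and 5.43% of all p65 peaks. With TMM, which moved the median of all p65 peaks from 1.46 to 0.24, 14540 of all 52629 p65 peaks were called higher and 11205 lower. Of the 835, TMM called 31 higher and 425 lower. Without KLA replicate 1 the counts were 24 and 17, and without KLA replicate 2 they were 17 and 19.

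The p65 peak in an intron of Col6a6, a collagen gene, had the lowest p of the higher ones. It had 42.9 and 38.2 tags with Veh and 259 and 284 with KLA, without overlap (log2 fold change 2.74 ± 0.23, adjusted p = 4.21e-06). Of those called lower, the peak in the RIKEN gene 2010111I01Rik had 32.4 and 37.3 tags with Veh and 2.004 and 2.05 with KLA (adjusted p = 0.000234), and with so few KLA tags no fold is given. Both directions occurred among the p65 peaks beside coregulator-negative PU.1 peaks.

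Fosl2 peaks beside coregulator-negative peaks were lower with KLA. The 417 peaks had medians of 28.2 and 25.2 tags with Veh and 2.33 and 12.9 with KLA, without overlap. Of them, 56 (13.4%) were called lower and 2 higher, against 4.19% and 11.4% of all Fosl2 peaks. The KLA libraries stood apart from each other, and the counts rest on single libraries. The test called 153 lower without KLA replicate 1, 249 without KLA replicate 2 and 0 without either Veh replicate. An intronic peak of Lpp, a focal adhesion protein, was called higher (5.64 and 16.8 tags with Veh, 58.2 and 78.3 with KLA, log2 fold change 2.57 ± 0.94, adjusted p = 0.0441). A peak upstream of 1700017B05Rik had 46.6 and 27.3 tags with Veh and 0 in both KLA libraries (adjusted p = 0.000603).

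PGC1β and ERK1 gave small numbers. Of 1244 PGC1β peaks beside coregulator-negative peaks, 111 (8.92%) were called lower with KLA and 12 (0.965%) higher, against 6.35% and 16.4% of all PGC1β peaks. Their medians were 18.8 and 19.3 tags with Veh and 17.5 and 14.9 with KLA. Leaving out 1 library moved the lower count between 18 and 214 and the higher count between 0 and 57. Without Veh replicate 1 the counts were 22 and 0, without Veh replicate 2 18 and 4, without KLA replicate 1 214 and 19, and without KLA replicate 2 198 and 57. Of 475 ERK1 peaks, 20 (4.21%) were called lower and 7 (1.47%) higher, against 2.53% and 10.3% of all ERK1 peaks. With TMM these were 26 and 5, against 1097 lower and 2266 higher of all 27931 ERK1 peaks. The medians of the 475 were 22.03 and 20.8 tags with Veh and 17.2 and 16.3 with KLA. The groups did not overlap in either protein's medians.

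The PGC1β peak at Ppp2r3c, a phosphatase regulatory subunit gene, was called higher, with 62.3 and 63.2 tags with Veh and 188 and 133 with KLA (log2 fold change 1.34 ± 0.27, adjusted p = 0.00158). The one at Tbl1xr1, which encodes a component of NCoR complexes, had 28.2 and 24.6 tags with Veh and 0 and 1.14 with KLA (adjusted p = 0.000196). An ERK1 peak in Arhgap22 had 0 tags in both Veh libraries and 18.4 and 27.2 with KLA (adjusted p = 0.0144), and one in Akt1, a kinase gene, had 18.9 and 27.7 with Veh and 0 in both with KLA (adjusted p = 0.0138). No fold is given where a group has so few tags. The ERK1 counts of 7 and 20 became 0 and 12 without KLA replicate 1, 0 and 6 without KLA replicate 2, 15 and 9 without Veh replicate 1, and 19 and 24 without Veh replicate 2.

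H3K27ac was low at the distal open regions beside coregulator-negative peaks. At 249 regions over 2 kb from a start, the medians were 3.15 and 3.06 tags per 10 M with Veh and 1.89 and 2.76 with KLA in WT cells. At 9460 distal regions beside coregulator-positive peaks they were 10.1 and 10.2 with Veh and 9.43 and 10.3 with KLA. At 3212 distal regions without a PU.1 peak they were 3.15 and 3.06 with Veh and 3.14 and 3.45 with KLA. With Veh the distal medians beside coregulator-negative peaks thus equalled those without PU.1. At so few tags, equal medians do not show that the levels were equal. Within 2 kb of a start, 693 regions beside coregulator-negative peaks had medians of 10.7 to 12.4 tags in the 4 WT libraries, below 22.7 to 27.6 beside coregulator-positive peaks.

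Few of the regions tested were called changed with KLA. Of 943 regions beside coregulator-negative peaks, 606 had the 16 tags in a library that the test asked for. They were 520 within 2 kb of a start and 86 of the 249 distal ones, so most distal regions were not tested. Of the 606, 16 (2.64%) were called higher and 17 (2.81%) lower, against 6.49% and 3.72% of all regions tested. Within 2 kb these were 2.88% and 2.50%, against 6.22% and 2.32% beside coregulator-positive peaks. Of the 86 distal regions, 1 (1.16%) was called higher and 4 (4.65%) lower, against 7.65% and 5.50% at distal regions beside coregulator-positive peaks. With TMM, which moved the median of all regions from 0.13 to -0.01, 895 of the 18504 regions tested were called higher and 959 lower. For the 606 the TMM counts were 11 and 20. Without Veh replicate 1 the counts were 6 and 5, without Veh replicate 2 they were 6 and 8, and without KLA replicate 2 they were 11 and 10. The promoter of Polr3d, a subunit of the polymerase that makes tRNA, had 42.2 and 41.8 tags with Veh and 130.2 and 114 with KLA (log2 fold change 1.54 ± 0.21, adjusted p = 2.3e-07). The promoter of Mxd3, a MYC-network repressor, had 57.4 and 57.6 tags with Veh and 5.66 and 11.03 with KLA (-2.79 ± 0.40, adjusted p = 9e-07). Neither overlapped between groups.

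Between NKO and WT cells with KLA, 3 of the 606 regions (0.495%) were called higher in NKO cells and 0 lower by edgeR, against 0.400% and 0.389% of all regions tested, so the higher share is close to that of all regions. Before adjustment 49 had a p under 0.05, and DESeq2 called 2 higher and 0 lower. The 3 became 0 without either NKO replicate and 1 without WT KLA replicate 2. At an intron of Inpp5a, an inositol phosphatase gene, WT cells had 3.14 and 1.38 tags and NKO cells 15.4 and 15.3 (log2 fold change 2.70 ± 0.61, adjusted p = 0.0147). These peaks were chosen for having no listed NCoR, and the p-values do not show that the mark was equal at the rest.

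RGFP966 with KLA, against DMSO with KLA, went with higher H3K27ac at distal regions and lower H3K27ac near starts. In this separate table, 1113 of 1554 regions beside coregulator-negative peaks were tested, and 216 (19.4%) were called higher and 174 (15.6%) lower, against 26.9% and 9.53% of all regions. With TMM, which moved the median of all regions from 0.39 to 0.04, 4031 of the 25045 regions tested were called higher and 4742 lower. Beside coregulator-negative peaks the TMM counts were 116 and 307. Without DMSO KLA replicate 1, 108 were called lower. Among 518 distal regions, 192 (37.1%) were called higher and 4 (0.772%) lower, beside 40.8% and 0.408% at distal regions of coregulator-positive peaks. Among 595 within 2 kb of a start, 24 (4.03%) were called higher and 170 (28.6%) lower, beside 9.28% and 20.9%. The same split by distance was present with TMM. At distal regions 106 were called higher and 15 lower, beside 2971 and 263 of 12240 at coregulator-positive peaks. Within 2 kb of a start these were 10 and 292, beside 277 and 2008 of 4808.

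In an intron of Rgs18, a regulator of G-protein signalling, DMSO cells had 20.7 and 18.5 tags and RGFP966 cells 107.9 and 75.9 (log2 fold change 2.22 ± 0.28, adjusted p = 4.12e-13). At the promoter of Cnot3, a subunit of the mRNA deadenylase complex, DMSO cells had 183 and 151 and RGFP966 cells 34.2 and 42.7 (-2.12 ± 0.24, adjusted p = 1e-15). The groups were apart at both. The split by distance to the start was present at both sets of PU.1 peaks.

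By the nearest listed gene, of 188 PU.1 peaks assigned to 33 genes of a TLR4 response list (Tnf, Il1b, Il6 and others), 0 were coregulator-negative, which allows a share of up to 1.596% by 3 counts and 1.94% by an exact interval, against 16.2% of all PU.1 peaks. Some genes of the list, such as Ptgs2 and Cp, were taken from the study, which shows NCoR and HDAC3 at them, so the choice of genes partly sets this count and it is no independent evidence. Of the 188, 12 were in the weakest group of PU.1 signal, and the share was not tested apart from signal. The macrophage list had 13 of 159 (8.18%, interval 4.43 to 13.6), the LXR and lipid list 4 of 79 (5.06%) and the interferon list 5 of 61 (8.20%). Tlr4 itself, the receptor for KLA, had 3 of 12, and Ddx58, an RNA sensor, 2 of 5.

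Among lists of other lineages the shares ran both ways. The erythroid and megakaryocyte list had 9 of 24 (37.5%, interval 18.8 to 59.4), of which 7 were in the weakest group of signal, and the neutrophil list 7 of 31 (22.6%, 9.59 to 41.1). The mast cell, basophil and eosinophil list had 3 of 14, and the neuronal list 3 of 14. The B cell list had 7 of 68 (10.3%), the T and NK cell list 3 of 34, the dendritic cell list 10 of 78, the osteoclast list 12 of 96 and the housekeeping list 9 of 57. Some single genes had no other kind of PU.1 peak, as did 11.7% of all genes nearest to a PU.1 peak. By list, such genes were 4 of 12 with a PU.1 peak for B cells, 1 of 13 for T and NK cells and 2 of 14 for neutrophils. They were 3 of 8 for the erythroid and megakaryocyte list, 2 of 13 for housekeeping and 0 of 21 for macrophages. At Ms4a1, another B cell gene, 0 of 9 peaks were coregulator-negative. All 3 peaks at Cd79b, a B cell receptor subunit, were coregulator-negative, as were the 2 at Elane, the neutrophil elastase, the 2 at Rhd, a red cell antigen, and the 1 each at Lck, a T cell kinase, and Fasn, the fatty acid synthase. Intervals are wide for lists of few peaks, and nearest gene is a matter of position only.

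**Figure D5:**
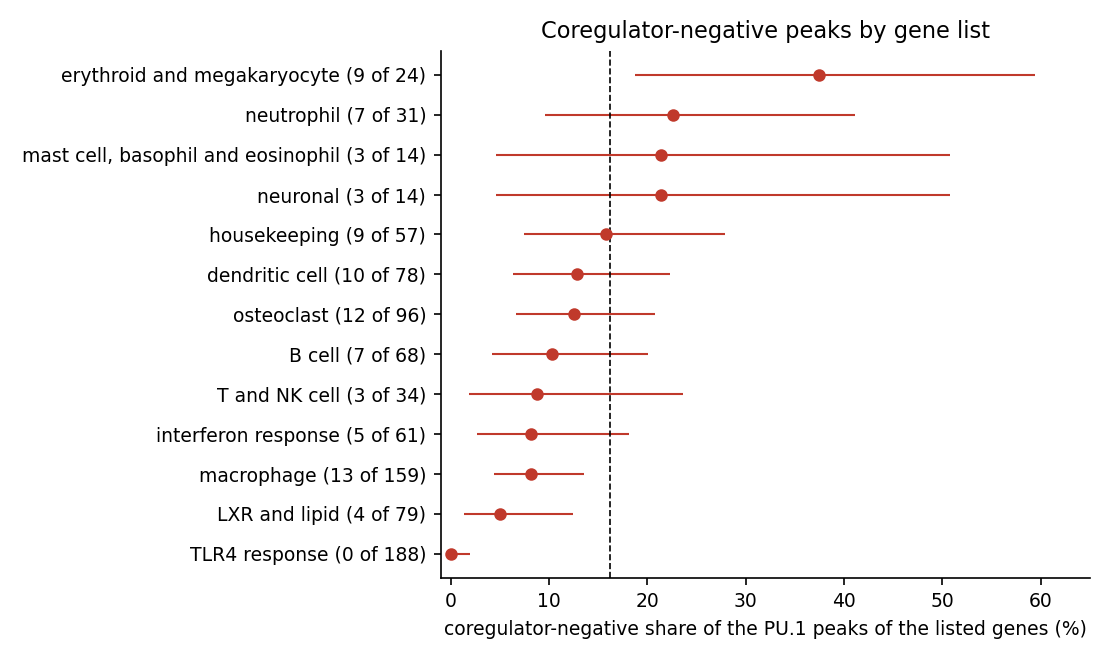
Coregulator-negative share (x axis, percent) of the PU.1 peaks whose nearest gene is in each list, with counts in the labels and exact 95% intervals as lines. The dashed line is the 16.2% of all PU.1 peaks. The TLR4 response list lies at 0 of 188 and the erythroid and megakaryocyte list at 9 of 24.

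By library totals, values for the strongest coregulator-negative peaks of the lists varied in direction. In an LTR within Adgre1, the macrophage marker, PU.1 had 134 and 135 tags per 10 M with Veh and 220.5 and 206 with KLA, a rise below 2-fold (log2 fold change 0.66 ± 0.10, adjusted p = 4.04e-09) that passes 2-fold with TMM (1.08). Near Klrb1c, an NK cell receptor gene, PU.1 had 174 and 195 with Veh and 108 and 124 with KLA (-0.66 ± 0.11, adjusted p = 5.08e-08, and -0.25 with TMM). Neither overlapped between groups.

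In an intron beside Irf1, an interferon response factor, PU.1 had 179 and 187 tags with Veh and 132 and 141 with KLA (-0.42 ± 0.11, adjusted p = 0.00023), a difference of 0.00 with TMM. Beside Ctsk, the bone-degrading cathepsin of osteoclasts, a B3A repeat peak had 80.2 and 74.1 tags with Veh and 107 and 104 with KLA (0.45 ± 0.14, adjusted p = 0.00327). Both pairs of groups were apart, by less than 2-fold. At Camp (neutrophils), Hdc (histamine synthesis), Itgax (dendritic cells), Lpcat3 (phospholipids), Cntnap2 (neurons) and Actb (actin) the log2 fold changes lay between -0.19 and 0.19, with adjusted p from 0.136 to 0.958 by edgeR. With TMM they lay between 0.22 (Camp) and 0.60 (Actb), so the signs below 0 depend on the scaling. Of these genes, Camp had the most tags, with 132 and 134 with Veh and 117 and 116 with KLA.

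In all, 13349 genes were nearest to a PU.1 peak. Of these, 1564 (11.7%) had coregulator-negative peaks alone, 4131 had both kinds, and 7654 had no coregulator-negative peak. Of the 1564, 268 had more than 1 peak. The genes with the most were Abr, with 10 of its 28 PU.1 peaks, followed by a tie of Cstad (8 of 10), 0610038B21Rik (8 of 21), the adhesion receptor gene Adgrl2 (8 of 26), the xylosyltransferase gene Xylt1 (8 of 26) and 2010111I01Rik (8 of 34). Of peaks assigned to protein-coding genes 16.4% were coregulator-negative, and of those assigned to noncoding RNA genes 14.5%.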

How the data were processed

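ChIP-seq tags were analysed from 12 deposited tables of raw tag counts, 1 for each protein or mark and experiment. Per the paper's methods and the submitters' processing notes, the authors aligned reads to mm10 with Bowtie2, called peaks with HOMER, kept those reproducible between replicates (IDR), merged them across conditions and counted tags per region, with at most 3 tags per position. H3K27ac tags were counted over ATAC-seq regions. Tool versions are not given in the sources used here. Proteins were crosslinked with DSG and formaldehyde, H3K27ac with formaldehyde alone. Another 3 tables were not used here.

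Levels are tags per 10 M tags, scaled to the library totals in the file headers. Peaks or regions with at least 4 tags (H3K27ac 16) in a library were tested over the whole table with edgeR's quasi-likelihood test (edgeR 4.0.16 in R 4.3.3), with library totals as sizes and Benjamini-Hochberg adjustment. A call needed an adjusted p under 0.05 and over 2-fold. SE is the log2 fold change divided by the square root of F. Fits were tested on simulated data. Alternatives were TMM and DESeq2 (1.42.0) scaling, the DESeq2 Wald test, other filters and distances, a replicate block and leaving out each library. Shares have 95% intervals by the exact Clopper-Pearson method, for counting error alone. Positions, motifs and shares used Python 3.11.15 with pandas 2.3.3, scipy 1.17.1 and pysam 0.24.0, and figures matplotlib 3.10.9.

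Named peaks were the 5 strongest and 3 weakest, the 5 calls in each direction with the lowest p, the 5 strongest promoter peaks, the strongest peak and richest gene of each gene list, the 5 richest genes with ties, and the lowest p in each direction among features of other tables nearby. Peaks, gene lists and tests were chosen with earlier results of these data known. The strongest peak of 1 list is not reported here.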

Additional observations from a re-analysis of the deposited data

How the results depend on the processing

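At coregulator-negative peaks the lower PU.1 calls outnumbered the higher ones under all of the alternatives run except in the peaks listed in both conditions. That set was chosen after seeing the data (28 higher and 9 lower). The counts were 225 and 1454 with the DESeq2 Wald test, 226 and 1469 with DESeq2 size factors and 228 and 1456 with TMM, and leaving out 1 library gave 58 to 71 higher and 2770 to 2878 lower. For p65 the counts, higher then lower, were 29 and 421 (Wald test), 33 and 422 (size factors) and 31 and 425 (TMM), and 17 to 215 and 17 to 197 without 1 library. Over all 31283 Fosl2 peaks TMM called 5933 higher and 3027 lower. Beside coregulator-negative peaks the Fosl2 counts were 5 and 114 (Wald test), 6 and 115 (size factors), and 6 and 93 (TMM). Higher Fosl2 calls were 1 with edgeR's own filter and 4 with a selection distance of 500 bp, and without 1 library the counts were 0 to 7 and 0 to 249. For PGC1β they were 0 to 57 and 18 to 214 without 1 library, and for ERK1 0 to 19 and 6 to 24, with 3 higher by the Wald test. For H3K27ac with KLA, 6 were higher by the Wald test, and 6 to 12 higher and 5 to 18 lower without 1 library. For NKO against WT, 5 were higher with no filter and 0 to 2 without 1 library. For RGFP966 they were 90 and 287 (Wald test), 127 and 298 (size factors) and 116 and 307 (TMM), and 146 to 204 and 108 to 224 without 1 library. Where a group was left with 1 library, its spread was taken from the others. The causes of these differences were not tested.

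With the replicate block, p65 had 88 higher and 58 lower, Fosl2 0 and 0, and ERK1 0 and 5, and the other counts stayed within 1.5 times. Same-numbered libraries did not deviate together in any of 8 comparisons (correlations of replicate differences from -0.0266 to 0.0255), so the numbers were not taken as pairs.

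The distal share was 86.7% with a limit of 1 kb, and 77.4% and 83.0% with a selection distance of 500 and 2000 bp. Neighbour shares within 200 and 1000 bp were 9.39% and 11.8% for p65, 13.9% and 16.9% for PGC1β, 5.01% and 6.86% for ERK1, and 9.55% and 12.9% for open regions, with 5.67% within 1000 bp for Fosl2.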
